A study of Mus musculus with 9 samples.

Results

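The genes examined encode the machinery that moves proteins and RNA between nucleus and cytoplasm, measured in mouse spinal cord after an antisense oligonucleotide (ASO) against C9orf72. Members were chosen by name alone: nucleoporins, importins, karyopherins, exportins and transportins with a numbered symbol, and in addition Ran, Rangap1, Ranbp1, Ranbp2, Rcc1, Cse1l, Tpr, Pom121 and Ndc1. A gene also had to reach 0.5 RPKM (a read count scaled by transcript length and by the library's total reads) in at least 3 of the 9 libraries. The rule found 47 genes among 14831 in the table, and all 47 passed the filter on low values with no library at the floor of 0.1 RPKM, so no member lay near that threshold. The 6 other symbols that fit the name rule in the reference (Kpna2-ps, Kpna7, Nup62, Nup62cl, Nup210l and Xpo4) were not analysed here. The libraries came from wild-type female C57Bl/6 mice of 10 weeks, which carry no repeat expansion, and the spinal cord was taken 2 weeks after 10 µl had been injected into the right lateral ventricle. Mice of the C9orf72 ASO group received 500 µg of ASO number 571883 (3 libraries), those of the control ASO group 500 µg of ASO number 456835 (3 libraries), and the saline group no ASO (3 libraries). For one control ASO library the labels leave the strain field empty and give C57Bl/6 as the source. Whether each library is a separate animal is not stated in the labels, so p-values measure the spread between these samples, which may be technical.

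The nuclear pore is a channel through the nuclear envelope built from nucleoporins: an outer Y-shaped complex, an inner ring, a membrane anchor, a central channel of proteins rich in phenylalanine-glycine repeats, filaments on the cytoplasmic side and a basket on the nuclear side. Importins bind cargo in the cytoplasm and exportins bind it in the nucleus. The small GTPase Ran is loaded with GTP in the nucleus by Rcc1 and hydrolyses it in the cytoplasm with the help of Rangap1. This cycle gives transport its direction. An expanded repeat in human C9orf72 causes motor neuron disease and dementia, and in fly, yeast and human cell models of it genes of this machinery modify toxicity. The comparisons here address a lowering of C9orf72 RNA, not the repeat. Because each ASO group received a single oligonucleotide, effects of its sequence cannot be told apart from those of the lowering.

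Promoters were examined because several transport receptors had lower values in the same libraries. The 4 windows shown belong to the members with the smallest p against the control ASO in each direction, Ipo8 and Ipo9 with lower and Nup88 and Kpna2 with higher values. Each window holds 250 bases before and 50 after the first listed RefSeq start (build GRCm38.p6, read 5′ to 3′ on the gene's strand), at chr6:148831418-148831717 (minus strand), chr1:135430450-135430749 (minus strand), chr11:70969924-70970223 (minus strand) and chr11:106999476-106999775 (minus strand). Capitals mark matches, on either strand, to the NRF1 motif (10 letters, with N at 1 of them), to CCGGAAG (the ETS core), GGGCGG (the SP box) or CCAAT.
Ipo8: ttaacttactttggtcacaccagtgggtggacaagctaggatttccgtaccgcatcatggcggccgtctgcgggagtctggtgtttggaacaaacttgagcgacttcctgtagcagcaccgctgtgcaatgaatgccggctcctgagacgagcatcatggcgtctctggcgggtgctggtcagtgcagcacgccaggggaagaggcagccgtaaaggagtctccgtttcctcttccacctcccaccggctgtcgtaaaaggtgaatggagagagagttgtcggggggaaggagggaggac
Ipo9: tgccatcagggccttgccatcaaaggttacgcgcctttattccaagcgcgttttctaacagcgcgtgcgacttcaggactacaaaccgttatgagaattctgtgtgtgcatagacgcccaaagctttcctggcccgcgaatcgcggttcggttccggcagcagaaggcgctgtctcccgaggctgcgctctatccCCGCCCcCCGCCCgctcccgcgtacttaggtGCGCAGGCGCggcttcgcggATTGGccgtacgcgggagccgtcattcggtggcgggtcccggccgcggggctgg
Nup88: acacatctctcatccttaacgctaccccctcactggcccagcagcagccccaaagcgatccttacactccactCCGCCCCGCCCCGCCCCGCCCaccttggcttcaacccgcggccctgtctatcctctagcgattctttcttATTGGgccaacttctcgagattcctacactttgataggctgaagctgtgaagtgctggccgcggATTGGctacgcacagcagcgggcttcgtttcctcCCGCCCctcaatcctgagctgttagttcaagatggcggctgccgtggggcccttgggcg
Kpna2: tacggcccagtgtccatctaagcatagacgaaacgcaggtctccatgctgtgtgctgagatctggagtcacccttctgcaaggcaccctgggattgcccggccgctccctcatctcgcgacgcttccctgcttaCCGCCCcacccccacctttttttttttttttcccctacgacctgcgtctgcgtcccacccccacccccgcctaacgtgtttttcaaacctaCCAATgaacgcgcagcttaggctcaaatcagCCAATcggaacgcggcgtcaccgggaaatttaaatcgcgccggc
The Ipo8 window held none of these motifs, that of Ipo9 held 1 NRF1 motif, 2 SP boxes and 1 CCAAT, that of Nup88 held 5 SP boxes and 2 CCAAT, and that of Kpna2 held 1 SP box and 2 CCAAT. Among the 39 members with a window in the table, 27 had an SP box (69.2%, against 64.3% of the 10782 tested genes with a window and 35.9% of all 27025 windows). CCAAT stood in 19 (48.7%, against 38.5% and 37.9%), the NRF1 motif in 5 (12.8%, against 10.1% and 4.78%), the ETS core in 6 (15.4%, against 17.1% and 9.12%) and TATAAA in 3 (7.69%, against 6.90% and 14.2%). The median GC content of the members' windows was 64.3%, against 61.0% in tested genes.

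C9orf72, the target, stood at 2.684, 3.397 and 3.122 RPKM after the C9orf72 ASO, at 11.2, 11.7 and 10.6 RPKM after the control ASO and at 10.5, 11.4 and 11.5 RPKM after saline. The 3 values after the C9orf72 ASO lay below the other 6 (exact two-sided permutation p = 0.0119, the smallest that this split of 9 libraries allows), and the mean was 27.5% of that after the control ASO. The spacing of low values implied a depth of 90.4 to 123.9 M reads per library. As markers of the tissue, the 5 Hox genes of trunk position summed to 245 to 314 RPKM. Snap25 and the other neuronal markers and Mbp and the other myelin markers were high. The 5 listed motor neuron genes (Chat, Slc5a7, Prph, Isl1 and Mnx1) were measured in every library. Isl1 (0.564 to 0.833 RPKM) and Mnx1 (0.681 to 1.04 RPKM) lay close to the threshold of 0.5 RPKM. Chat, Slc5a7 and Prph lay further above it. Of the listed markers of other tissues, Emx1 (forebrain), Alb (liver) and Myh4 and Ckm (muscle) were not among the genes of the table, while Neurod6 (forebrain) stood at 1.52 to 2.19 RPKM and Acta1 (muscle) at 10.6 to 13.8 RPKM. Summed microglial markers (7 of 7 in the table) ranged from 137.7 to 147.5 RPKM after the C9orf72 ASO, 108.5 to 114.9 after the control ASO and 104 to 124 after saline, and summed endothelial markers (4 of 4) from 15.2 to 18.8, 16.6 to 24.4 and 24.1 to 31.0 RPKM in the same order of groups. Neuronal markers summed to 3197 to 3577 RPKM, 3578 to 3704 RPKM and 3323 to 3551 RPKM in that order, and blood markers (6 of 6) to 499.9 to 830.1, 480.7 to 1912 and 561.2 to 603.8 RPKM. At an adjusted p under 0.05 (limma), 1 blood marker was called for the C9orf72 ASO against the control ASO. For the control ASO against saline 1 blood marker was called, and for the C9orf72 ASO against saline 1 microglial marker. The part of these cell types in the results was not tested. In bulk tissue, fewer cells of a type and less RNA per cell cannot be told apart.

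Levels followed the role of the gene. Over the 9 libraries the 4 genes of the Ran cycle had a median level of 49.0 RPKM, the 21 transport receptors 16.4 RPKM and the 22 nucleoporins 5.54 RPKM, against 7.96 RPKM over the 14430 genes tested. Ran led with a mean of 63.2 RPKM, above 93.5% of the tested genes, with Rangap1 at 49.1 and Ranbp1 at 49.0 RPKM, whereas Rcc1, the chromatin-bound exchange factor that loads Ran with GTP, stood at 2.09 RPKM. Among receptors Kpnb1, the carrier of the classical import route, was highest at 39.6 RPKM, followed by Ipo7 at 36.4 and the adaptor Kpna1 at 31.6 RPKM. The 5 importin alpha genes ran in the order Kpna1, Kpna3 (26.5), Kpna6 (19.0), Kpna4 (15.6) and Kpna2 (8.60 RPKM). The 6 genes of the Y complex lay between 1.79 RPKM (Nup37) and 7.53 RPKM (Nup85), and the 5 of the inner ring between 2.79 (Nup188) and 7.83 RPKM (Nup93). Peripheral nucleoporins reached further, with Tpr of the nuclear basket at 28.7 RPKM, Nup88 of the cytoplasmic filaments at 19.5 and Ranbp2 at 16.0 RPKM. These are RNA levels and give no count of protein copies in the pore.

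**Figure D1:**
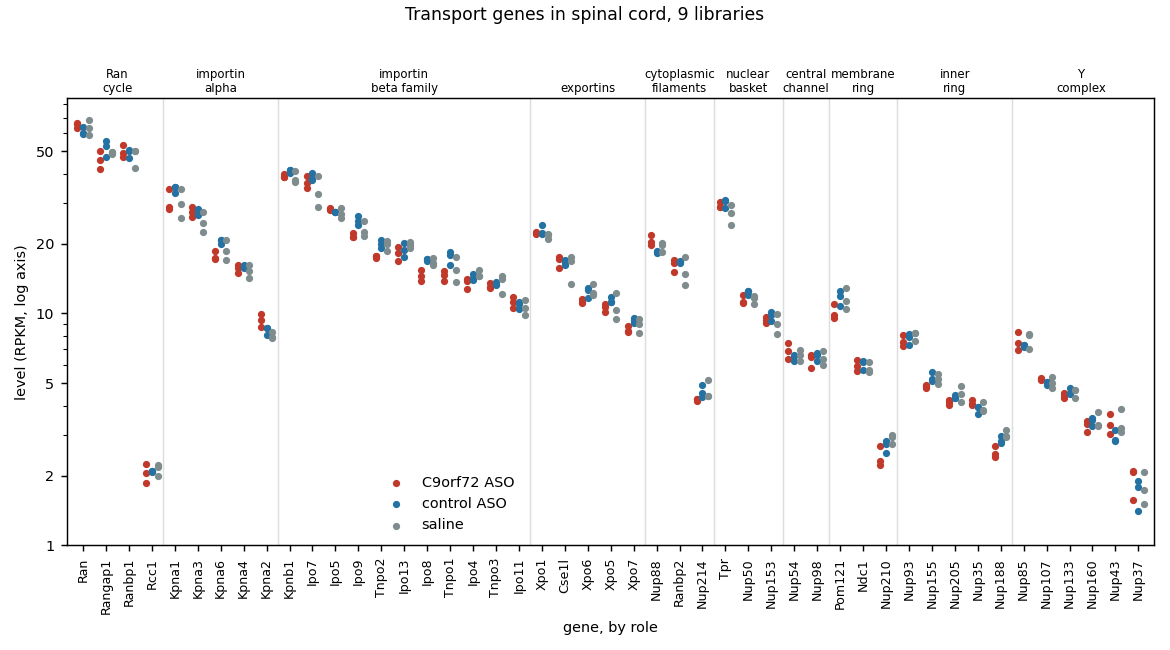
Level in RPKM (log axis) of the 47 genes in each library, ordered by role; each point is a library, with the C9orf72 ASO in red, the control ASO in blue and saline in grey. Ran, Rangap1 and Ranbp1 stand near 50 to 63 RPKM, the receptors between 8.60 and 39.6 RPKM, and most scaffold nucleoporins below 8 RPKM, and within a gene the groups lie close together.

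Across the series the members varied about as much as tested genes in general, at higher levels (medians of 11.8 and 7.96 RPKM). The ratio of the highest to the lowest of the 9 libraries had a median of 1.21 over the members, against 1.27 over all tested genes, and its maximum was 1.49, in Nup37. Behind Nup37, the member with the fewest reads, stood an implied 423 reads in its lowest library, a counting error of 4.86%, while Ipo7 had at least 34230. Kpna2, Ipo4 and Nup35 are uncertain, because 62.6%, 51.6% and 39.2% of their 50-base stretches also occur in transcripts of other annotated genes (mostly Gm10184, Gm49378 and Gm4353). Ranbp1, Ran, Nup54 and Tnpo1 shared between 10.7% and 15.6%, and the other 40 at most 4.39%.

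The control ASO comparison sets the C9orf72 ASO against another oligonucleotide. In it 0 of 47 members passed the threshold (Benjamini-Hochberg adjusted p under 0.05 over 14430 genes, limma on log2(RPKM + 0.1)), where 0.0693% of all tested genes did, 5 higher and 5 lower. The smallest adjusted p of a member was 0.228. At an unadjusted p under 0.05 lay 8 members with lower values (17% of members, background 7.71%) and 2 with higher values (4.26%, background 6.39%). The median log2 fold change was -0.06 over the members and -0.01 over all tested genes, with 34 members below 0 (72.3%, background 54.1%) and 13 above (27.7%, background 45.8%). The C9orf72 ASO libraries lay wholly below the control ASO libraries in 13 members (27.7%, background 11.8%) and wholly above them in 5 (10.6%, background 10.1%). With the trend on transcript length removed, 5 members lay wholly below (10.6%, background 8.34%), 2 wholly above (4.26%, background 10.6%) and the median was -0.01. The 95% confidence interval of the fold change lay within 1.5-fold in either direction for all 47 members, and for 90.96% of all tested genes.

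Before removal of the length trend, the importins and transportins held the members with the smallest p. After it, Nup88 had the smallest. Ipo8, a carrier of the importin beta family, measured 13.8, 15.4 and 14.5 RPKM after the C9orf72 ASO, against 17.2, 17.1 and 16.8 RPKM after the control ASO. The groups did not overlap, and the log2 fold change was -0.23 (SE 0.06, adjusted p = 0.228, limma). Ipo9, which imports histones and actin, measured 21.3, 21.5 and 22.2 RPKM after the C9orf72 ASO, against 24.9, 24.1 and 26.3 RPKM after the control ASO, without overlap (log2 fold change -0.21, SE 0.06). Tnpo2 measured 17.7, 17.3 and 17.6 RPKM after the C9orf72 ASO, against 20.8, 19.9 and 19.2 RPKM after the control ASO, again apart (-0.18, SE 0.06). Tnpo1, another carrier of the importin beta family, measured 14.6, 15.2 and 13.8 RPKM after the C9orf72 ASO, against 16.2, 17.8 and 18.3 RPKM after the control ASO. Its log2 fold change of -0.26 (SE 0.09, adjusted p = 0.266) was the lowest of the 47. None of these 4 receptors passed the threshold. Kpna6, an importin alpha adaptor singled out after its values were seen, also had separate groups, with 17.1, 18.6 and 17.3 RPKM after the C9orf72 ASO, against 19.9, 20.8 and 20.7 RPKM after the control ASO (-0.21, SE 0.07, adjusted p = 0.267, limma).

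In the importin beta family as a whole 9 of 11 genes had log2 fold changes below 0 (background 54.1%; median -0.08), 0 passed, and in 5 the C9orf72 ASO libraries lay wholly below (background 11.8%). Kpnb1 was 1 of these 5, at 38.8, 39.8 and 39.0 RPKM after the C9orf72 ASO, against 41.6, 41.4 and 40.4 RPKM after the control ASO, with a log2 fold change of only -0.07 (SE 0.06). Ipo7, an importer of ribosomal proteins, measured 36.5, 39.1 and 34.9 RPKM after the C9orf72 ASO, against 40.4, 38.4 and 37.6 RPKM after the control ASO, and the groups overlapped. Of the importin alpha adaptors 4 of 5 lay below 0 (background 54.1%; median -0.03), with Kpna1 at 28.8, 34.5 and 28.1 RPKM after the C9orf72 ASO, against 33.02, 34.99 and 35.19 RPKM after the control ASO. Kpna3 stood at 27.4, 28.7 and 26.0 RPKM after the C9orf72 ASO and at 26.5, 28.1 and 27.5 RPKM after the control ASO, a log2 fold change of -0.00 (SE 0.07), and both genes' groups overlapped. Kpna2 was the adaptor with higher values, 9.34, 9.91 and 8.75 RPKM after the C9orf72 ASO, against 8.63, 8.06 and 8.64 RPKM after the control ASO (0.14, SE 0.06, adjusted p = 0.348). Its lowest C9orf72 ASO library was only just above the highest control ASO library.

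The 5 exportins had log2 fold changes between -0.14 and 0.02 (median -0.10), and 4 lay below 0 (background 54.1%). Xpo1, which exports proteins with a leucine-rich signal, measured 22.4, 22.2 and 22.1 RPKM after the C9orf72 ASO, against 22.03, 24.02 and 22.22 RPKM after the control ASO (log2 fold change -0.03, SE 0.05). Cse1l, which returns importin alpha to the cytoplasm, measured 17.2, 17.5 and 15.7 RPKM after the C9orf72 ASO, against 16.53, 16.96 and 16.22 RPKM after the control ASO (0.02, SE 0.09). The groups overlapped in both genes. Xpo5, Xpo6 and Xpo7 had log2 fold changes of -0.10, -0.13 and -0.14, each with all C9orf72 ASO libraries below the control ASO libraries (background 11.8%), and 0 of the 5 exportins passed.

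In the Ran cycle, Ran measured 65.7, 66.4 and 63.1 RPKM after the C9orf72 ASO, against 60.2, 63.6 and 59.3 RPKM after the control ASO (log2 fold change 0.09, SE 0.07). Rangap1, the activator of GTP hydrolysis by Ran, measured 41.99, 45.79 and 50.02 RPKM after the C9orf72 ASO, against 52.8, 47.4 and 55.2 RPKM after the control ASO (-0.17, SE 0.08, adjusted p = 0.333). The groups overlapped in both. Ranbp1 and Rcc1 stood at 0.02 and -0.03.

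**Figure D2:**
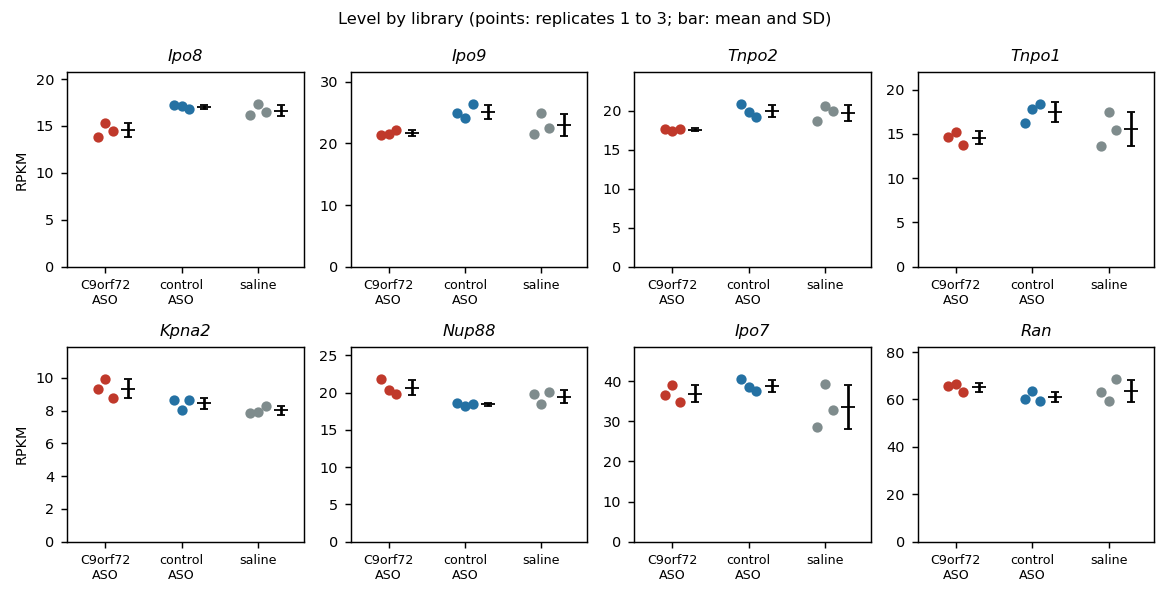
RPKM by library for 8 of the genes, linear axes from 0; points are replicates 1 to 3 of each group, and the bar gives mean and SD. In Ipo8, Ipo9, Tnpo2 and Tnpo1 the C9orf72 ASO libraries lie below the control ASO libraries, in Kpna2 and Nup88 above them, and in Ipo7 and Ran the groups overlap.

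Nucleoporins spread to both sides of 0, 15 of 22 below (background 54.1%) and 7 above (background 45.8%), and 0 passed. Nup88, of the cytoplasmic filaments, was the nucleoporin with the smallest p, at 21.8, 20.3 and 19.8 RPKM after the C9orf72 ASO, against 18.6, 18.2 and 18.4 RPKM after the control ASO (0.16, SE 0.06, adjusted p = 0.277). Its groups did not overlap. Ranbp2, the filament protein that holds Rangap1 at the pore, measured 17.1, 16.6 and 15.0 RPKM after the C9orf72 ASO, against 16.7, 16.5 and 16.8 RPKM after the control ASO (-0.04, SE 0.09). Those groups overlapped, as did those of Tpr, with 28.8, 30.3 and 28.7 RPKM after the C9orf72 ASO, against 30.7, 28.5 and 30.7 RPKM after the control ASO. Nup50, a basket protein that helps to release cargo from importin alpha, measured 11.15, 12.01 and 11.20 RPKM after the C9orf72 ASO, against 12.52, 12.56 and 11.98 RPKM after the control ASO (-0.11, SE 0.06). One C9orf72 ASO library of Nup50 was just above the lowest control ASO library, so the groups overlapped.

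The phenylalanine-glycine nucleoporin Nup98 measured 6.60, 6.47 and 5.84 RPKM after the C9orf72 ASO, against 6.78, 6.62 and 6.26 RPKM after the control ASO, and Nup54 of the same channel 7.42, 6.91 and 6.35 RPKM, against 6.65, 6.53 and 6.27 RPKM. Both pairs of groups overlapped. Pom121, which anchors the pore in the membrane, measured 9.57, 9.87 and 11.03 RPKM after the C9orf72 ASO, against 11.9, 10.7 and 12.6 RPKM after the control ASO (-0.20, SE 0.09, adjusted p = 0.339), also with overlap. In the inner ring Nup188 measured 2.47, 2.40 and 2.69 RPKM after the C9orf72 ASO, against 2.83, 2.75 and 2.97 RPKM after the control ASO (-0.17, SE 0.07, adjusted p = 0.333), without overlap. Its paralogue Nup205 measured 4.25, 4.17 and 4.04 RPKM after the C9orf72 ASO, against 4.43, 4.31 and 4.30 RPKM after the control ASO (-0.06, SE 0.07), and Nup93 8.10, 7.54 and 7.23 RPKM, against 8.18, 7.94 and 7.34 RPKM. The Y complex had 4 of 6 genes above 0 (background 45.8%), with Nup107 at 5.21, 5.27 and 5.14 RPKM after the C9orf72 ASO, against 5.07, 5.08 and 4.93 RPKM after the control ASO (0.05, SE 0.06), and Nup85 at 7.43, 6.99 and 8.28 RPKM, against 7.32, 7.31 and 7.17 RPKM. The groups of Nup107 were just apart and those of Nup93 and Nup85 overlapped.

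**Figure D3:**
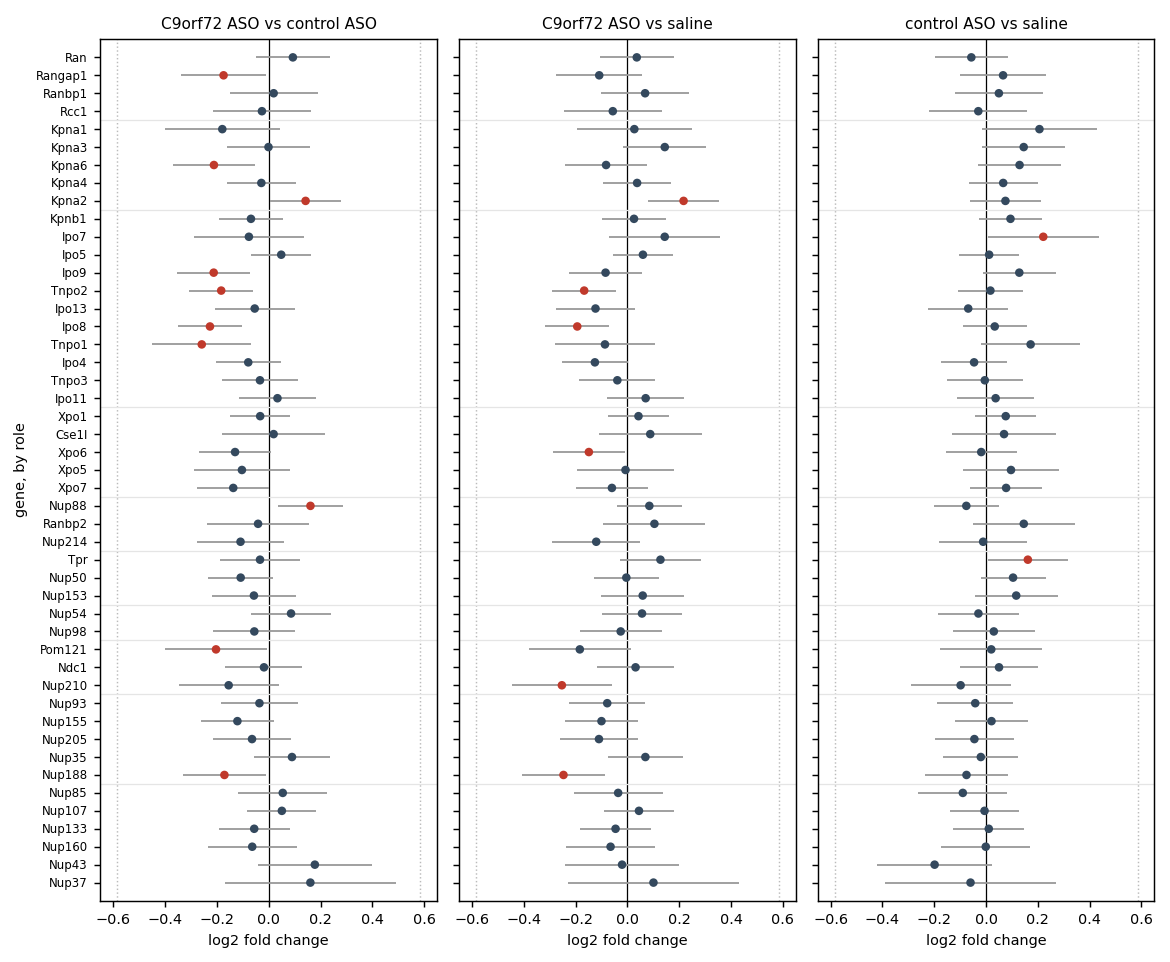
Log2 fold change on the log2(RPKM + 0.1) scale (points) with 95% confidence interval (lines) of the 47 genes in each comparison, ordered by role. Red points have an unadjusted p under 0.05, dotted lines mark 1.5-fold, every interval lies between them, and no gene passed the adjusted threshold.

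Against saline, again 0 of 47 members passed (limma, background 0.0693%: 5 genes higher and 5 lower, or 6 higher and 3 lower with each library scaled by its median log ratio), and the smallest adjusted p was 0.216. This comparison shares the C9orf72 ASO libraries with the previous one. At an unadjusted p under 0.05 lay 5 members with lower values (10.6%, background 10.2%) and 1 with higher values (2.13%, background 3.79%). The median log2 fold change was -0.02, against -0.03 over all tested genes, with 26 members below 0 (55.3%, background 58.7%) and 21 above (44.7%, background 41.3%). The C9orf72 ASO libraries lay wholly below saline in 8 members (17%, background 12.4%) and wholly above in 2 (4.26%, background 5.61%), and with the length trend removed in 6 each way (12.8%, background 9.33% below and 9.89% above). With each library scaled by its median log ratio, 22 members lay below 0 and 25 above, and the median over all tested genes was 0.01. The members' median turned to 0.01 without C9orf72 ASO replicate 3 or with median log ratio scaling, to 0.02 with quantile normalization or the length trend removed, and to 0.00 without saline replicate 2, and it was -0.06 without saline replicate 1.

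Because the C9orf72 ASO libraries are shared, the values below are given side by side with those against the control ASO and are no second test. Ipo8 stood at 13.8 to 15.4 RPKM after the C9orf72 ASO, against 16.2, 17.3 and 16.4 RPKM after saline (log2 fold change -0.19, SE 0.06, adjusted p = 0.217). Tnpo2 stood at 17.3 to 17.7 RPKM after the C9orf72 ASO, against 18.64, 20.57 and 19.99 RPKM after saline (-0.17, SE 0.06, adjusted p = 0.25, limma). Nup188 stood at 2.40 to 2.69 RPKM after the C9orf72 ASO, against 2.96, 3.13 and 2.93 RPKM after saline (-0.25, SE 0.07, adjusted p = 0.222, limma). The groups were apart in all 3 genes. Kpna2 stood at 8.75 to 9.91 RPKM after the C9orf72 ASO, against 7.83, 7.90 and 8.30 RPKM after saline (0.22, SE 0.06, adjusted p = 0.216). In all, 6 members lay wholly below both control groups (Ipo8, Tnpo2, Nup155, Nup188, Nup214 and Xpo6; 12.8%, background 5.05%) and 1, Kpna2, wholly above both (2.13%, background 2.82%). These joint counts were not made with the length trend removed. Against the control ASO, Xpo6, Nup155 and Nup214 then stood at -0.04, -0.05 and -0.05. Ipo8, Tnpo2 and Nup188 stood at -0.14, -0.15 and -0.14.

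In Tnpo1, Ipo9, Nup88 and Rangap1 the C9orf72 ASO and saline libraries overlapped. Tnpo1 stood at 13.8 to 15.2 RPKM after the C9orf72 ASO, against 13.6, 17.5 and 15.5 RPKM after saline (log2 fold change -0.09, SE 0.09). Ipo9 stood at 21.3 to 22.2 RPKM after the C9orf72 ASO, against 21.53, 24.98 and 22.49 RPKM after saline (-0.08, SE 0.06). Nup88 stood at 19.8 to 21.8 RPKM after the C9orf72 ASO, against 19.8, 18.5 and 20.1 RPKM after saline (0.08, SE 0.06), and Rangap1 at 42.0 to 50.02 RPKM, against 49.7, 49.7 and 48.9 RPKM (-0.11, SE 0.08). Nup210, a membrane nucleoporin with the lowest log2 fold change of this comparison (-0.25, SE 0.09, adjusted p = 0.26), measured 2.69, 2.21 and 2.32 RPKM after the C9orf72 ASO, against 2.93, 2.98 and 2.73 RPKM after saline. These groups did not overlap, and the gene was singled out after its values were seen.

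The control ASO itself was set against saline to show what the injection of this oligonucleotide does, and 0 of 47 members passed (limma, background 0.00693%), with a smallest adjusted p of 0.794. At an unadjusted p under 0.05 lay 2 members with higher values (4.26%, background 1.37%) and 0 with lower values (background 3.98%). The median log2 fold change was 0.02, against -0.02 over all tested genes, with 28 members above 0 (59.6%, background 42.6%) and 19 below (40.4%, background 57.4%). With median log ratio scaling or quantile normalization 34 lay above and 13 below. The members' median was then 0.04, against 0.00 over all tested genes. The control ASO libraries lay wholly above saline in 2 members (4.26%, background 3.16%) and wholly below in 0 (background 7.15%). With the length trend removed these counts were 4 above (8.51%, background 5.68%) and 1 below (2.13%, background 5.86%). Tpr, the basket scaffold, had the smallest p, with 30.7, 28.5 and 30.7 RPKM after the control ASO, against 24.2, 29.2 and 27.1 RPKM after saline (0.16, SE 0.07). Ipo7 had 40.4, 38.4 and 37.6 RPKM after the control ASO, against 28.7, 39.3 and 32.7 RPKM after saline (0.22, SE 0.10). Kpna1 had 33.02, 34.99 and 35.19 RPKM after the control ASO, against 25.9, 34.3 and 29.8 RPKM after saline (0.21, SE 0.10), and Kpna3 26.5, 28.1 and 27.5 RPKM, against 22.5, 27.4 and 24.5 RPKM (0.15, SE 0.07). In these 4 genes saline replicate 1 was the lowest of the 9 libraries, and saline overlapped with the control ASO in each. Without saline replicate 1 the members' median was -0.01, and without saline replicate 2 it was 0.06 with 11 members at an unadjusted p under 0.05, all of higher values (23.4%, background 7.01% against 1.37% with all libraries), where the limma fit still called 0.

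**Figure D4:**
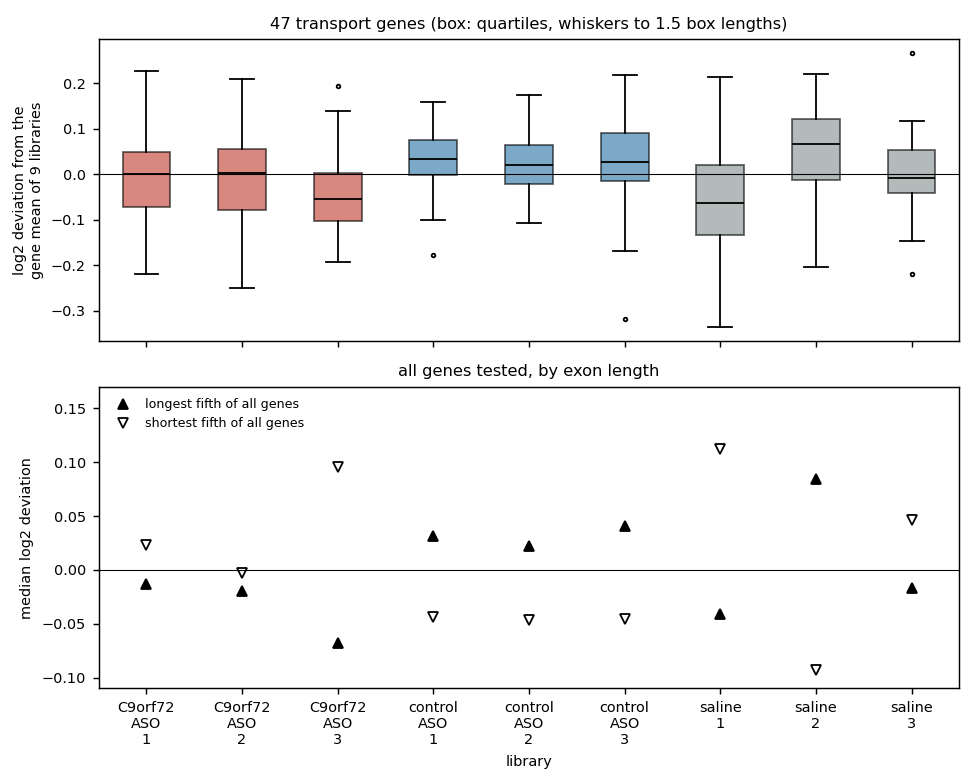
Upper panel, log2 deviation of each of the 47 genes from its mean over the 9 libraries, as boxes per library. Lower panel, median deviation of all tested genes in the longest and the shortest of 5 equal classes by exon length. Saline replicates 1 and 2 lie on opposite sides in both panels, and the C9orf72 ASO replicate 3 sits with saline replicate 1.

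Single libraries moved many members at once. Saline replicate 1 was the lowest of the 9 libraries for 21 of 47 members (44.7%, against 14.4% of all tested genes), while saline replicate 2 was the highest for 13 (27.7%, against 13.3%). The median deviation of the members from their mean over 9 libraries was 0.00, 0.00 and -0.05 in C9orf72 ASO replicates 1 to 3, 0.03, 0.02 and 0.03 in control ASO replicates 1 to 3, and -0.06, 0.07 and -0.01 in saline replicates 1 to 3. Over all tested genes it was -0.01, -0.02 and -0.00, then 0.00, -0.01 and 0.00, then 0.04, 0.01 and 0.02 in the same order. For the 21 receptors alone saline replicate 1 stood at -0.13 and saline replicate 2 at 0.10. Deviations also differed between long and short transcripts. With all tested genes in 5 equal classes of exon length, in the longest class the median deviation was -0.07 in C9orf72 ASO replicate 3, between 0.02 and 0.04 in the control ASO libraries, -0.04 in saline replicate 1 and 0.08 in saline replicate 2, and in the shortest class it was 0.10, between -0.05 and -0.04, 0.11 and -0.09. With each library's trend on length removed, the members' median deviation was 0.01, 0.03 and -0.01 in C9orf72 ASO replicates 1 to 3. It was 0.01, 0.02 and 0.01 in control ASO replicates 1 to 3, and -0.07, 0.01 and -0.00 in saline replicates 1 to 3. The deviation of saline replicate 1 thus remained.

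The members are long genes, with a median exon length of 6729 bases, against 4432 over all tested genes, and 19 of 47 fell in the longest class. Against the control ASO, all tested genes of that class had a median log2 fold change of -0.07, and the 19 members in it -0.08. In the second shortest class of 5 the medians were 0.01 over all genes and 0.09 over 7 members, among them Ran, Kpna2 and Nup54. With each library's trend on length removed, 27 members lay below 0 and 20 above, and the median over all tested genes was -0.00. Ipo8 then stood at -0.14, Ipo9 at -0.16, Tnpo2 at -0.15, Tnpo1 at -0.19, Nup188 at -0.14, Kpna2 at 0.13 and Nup88 at 0.21. Each was still short of the threshold (lowest adjusted p = 0.212, in Nup88, limma). Other members came nearer to 0. Xpo6 went from -0.13 to -0.04, Xpo7 from -0.14 to -0.05 and Xpo5 from -0.10 to -0.06. Nup155 went from -0.12 to -0.05, Nup214 from -0.11 to -0.05 and Kpnb1 from -0.07 to -0.03. Across genes, which are not independent replicates and share the same libraries, the fold change against the control ASO ran against log2 length with r = -0.58 over the 47 members and r = -0.23 over 13970 tested genes with a length.

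**Figure D5:**
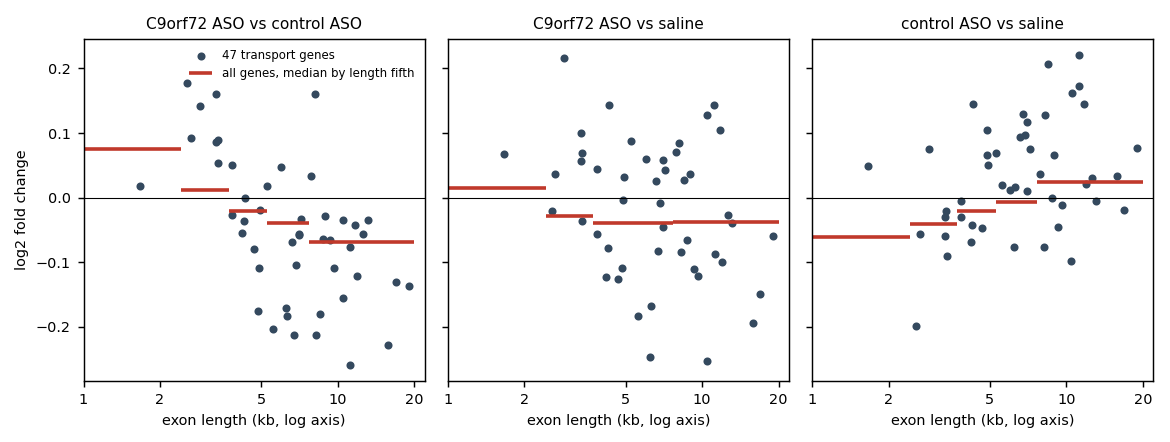
Log2 fold change of the 47 genes (points) against exon length (log axis) in each comparison, with the median of all tested genes in 5 equal classes of length as red bars. Against the control ASO both run downward with length, and in control ASO against saline the bars run upward.

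Beyond the named rule, 43 of 44 listed genes of the wider pathway were tested, covering further pore proteins, mRNA export factors, the nuclear lamina and its membrane partners. In limma 0 passed in any of the 3 comparisons. Against the control ASO 1 of 43 lay at an unadjusted p under 0.05 with higher values (background 6.39%) and 2 with lower values (background 7.71%). Against saline these counts were 1 and 0 (background 3.79% and 10.2%), and for the control ASO against saline 1 and 2 (background 1.37% and 3.98%). Their median log2 fold changes were -0.02, -0.04 and -0.05 in the same order. Sun2, which links the lamina to the cytoskeleton, had a mean of 11.9 ± 0.319 RPKM after the C9orf72 ASO, 13.3 ± 0.442 RPKM after the control ASO, and in saline libraries 12.6 ± 0.124 RPKM (SD, n = 3; adjusted p = 0.267 against the control ASO, limma). Lmnb1, a lamin gene, had 3.90 ± 0.313 RPKM after the C9orf72 ASO, 4.51 ± 0.104 RPKM after the control ASO, and in saline libraries 3.97 ± 0.149 RPKM (SD, n = 3; adjusted p = 0.273 against the control ASO and 0.892 against saline, limma). Tor1a, which encodes an ATPase of the endoplasmic reticulum and nuclear envelope, was the gene with higher values against the control ASO. It had 8.37 ± 0.511 RPKM after the C9orf72 ASO, 7.41 ± 0.458 RPKM after the control ASO, and in saline libraries 8.38 ± 0.417 RPKM (SD, n = 3; adjusted p = 0.306 against the control ASO and 0.996 against saline, limma). Of the 3 group means, that of the control ASO was the highest in Lmnb1 and the lowest in Tor1a. The channel nucleoporin Nupl1 and the filament gene Nupl2, which the name rule does not reach and which were added after values were seen, stood at -0.10 and 0.09 against the control ASO.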

How the data were processed

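Strand-specific RNA-seq libraries of total spinal cord RNA were made per the labels' protocols. The submitters' processing notes name cutadapt 1.2.1, GSNAP and mm9. The counter and gene annotation behind the table were not given in the sources used here. Its values are read as RPKM from the authors, deposited with each value under 0.5 set to 0.1. The header names no unit: for genes up to 350 bases, value times exon length fell within 0.1 of a whole read for 59.8% to 71.7% of values per library, once scaled by the implied depth. That depth was the one that made this share highest, so the share is no independent check of the unit or the depth. Symbols and exon lengths came from a GRCm38 annotation (14321 of 14831 gene IDs matched), and no mm9 positions are given.

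The 14430 genes that reached 0.5 RPKM in 3 or more libraries entered 1 fit of 9 libraries with limma 3.58.1 (R 4.3.3, trend and robust empirical Bayes, statmod 1.5.0) on log2(RPKM + 0.1), with no scaling, Benjamini-Hochberg adjustment and a threshold of 0.05. On this scale fold changes of low genes are understated. The procedure was run on simulated data with known fold changes and noise independent between genes, without shifts shared by a library. How often it recovers changes as small as those of the members is not given here. The labels carry no replicate numbers, so none were paired. Alternatives covered pseudocount, filter, scaling, moderation, samples in the fit, floor values, threshold, transcript length and each library left out. Values are given by library for 25 members: the 4 with the smallest p in each comparison, the highest in each role and a set listed with the design. Other members named with values were chosen after these were seen. The members, lists and tests were chosen with earlier results of these data known.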

Additional observations from a re-analysis of the deposited data

How the results depend on the processing

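No member was called in any comparison under any of the 20 alternatives, and the lowest adjusted p of a member was 0.0924 (Ipo8 against the control ASO, without saline replicate 2), 0.0866 (Kpna2 against saline, without C9orf72 ASO replicate 3) and 0.122 (Ipo7, control ASO against saline, without saline replicate 2). With 1 library left out, the members' median log2 fold change ran from -0.07 to -0.03 against the control ASO, from -0.06 to 0.01 against saline and from -0.01 to 0.06 for the control ASO against saline. C9orf72 ran from -1.91 to -1.74 against the other libraries. No paired analysis was possible because the labels and columns carry no replicate number shared between groups.

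The count over all genes, 10, 10 and 1 in these comparisons, depended on the settings. Against the control ASO it was 16 without a filter, 19 without trend and robust estimation, 26 at an adjusted p under 0.10 and 7 to 27 with 1 library left out, the highest without C9orf72 ASO replicate 3. Against saline it was 4 with only the 2 groups compared, 48 at 0.10, 25 with the length trend removed and 4 to 54 with 1 library left out: 54 without C9orf72 ASO replicate 3, 4 without its replicate 1 or 2 or saline replicate 2, and 16 without control ASO replicate 3. For the control ASO against saline it was 5 without a filter, 0 with only genes at 0.5 RPKM or more in all 9 libraries (733 at an unadjusted p under 0.05), 9 without trend and robust estimation, 2 at 0.10, 2 with the length trend removed and 0 to 2 with 1 library left out: 0 without any one control ASO library (356 to 916 at an unadjusted p under 0.05, limma) and 2 without saline replicate 1. The cause was not tested. The 25 named members had 75 values, and 25 of these took another sign than in the report under at least 1 alternative. In all, 53 of 1500 values under alternatives had another sign, all without a call. Many of the 1500 could not change, because settings such as the threshold of 0.10 leave a fold change as it is. The members' SE had a median of 0.07 and a maximum of 0.15, in Nup37, which also had the fewest reads.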
